A study of Nematostella vectensis with 16 samples.

Results

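Mercury chloride (Hg) at 100 µg/L for 24 h was compared with no added metal in whole starlet sea anemones, Nematostella vectensis, an estuarine cnidarian raised as a laboratory animal. The comparison used 3 Hg pools and 4 untreated control pools, 7 of the 16 libraries in the series, and was chosen by treatment label and not by any measured value. The Hg pools held 5 anemones each, and the sources used here do not give the number per control pool. Animals of 2 to 4 months were used throughout, raised in the dark at 18 °C in artificial seawater of 12.5 ppt. The other 9 libraries were pools exposed to copper (Cu), cadmium (Cd) or zinc (Zn) chloride at the same dose and time, with 3 pools per metal. All 27273 gene models of the deposited table are described here, and 16276 of them (59.68%) had enough counts to be tested. Each library is RNA from pooled whole animals at 1 dose and 1 time, so fewer cells of a type and less RNA per cell cannot be told apart.

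Mercury has no known nutritional role in animals. Its divalent ion binds tightly to sulfur in cysteine and glutathione, and through that can inactivate enzymes and use up the cell's thiol buffer. Animal cells exposed to such metals are known to raise metal-binding proteins, chaperones and enzymes of glutathione metabolism. Gene models in these files carry identifiers only. Of the identifiers, 0 matched a RefSeq table of 38762 genes of this species (assembly jaNemVect1.1), so no gene is given a function here and cell type markers could not be checked.

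Library totals were 5494659, 6842909 and 8113825 counts in Hg 1, Hg 2 and Hg 3, and 5517015 to 7643452 in the controls. At 1 CPM, that is counts per 1000000 counts after scaling for library size and composition, a gene had 5.69 to 7.82 counts in an Hg pool. CPM is a share of counts and is not corrected for gene length. No pool was a copy of another: the chi-square statistic of a pair, divided by its degrees of freedom, was 8.26 to 11.5 among Hg pools and 4.94 to 14.1 among controls, where counting error alone gives about 1. Labels do not say whether pools came from separate cultures, so p-values measure the spread between pools.

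Hg moved transcripts in both directions. Increases outnumbered decreases among called genes, but not among called changes of at least 16-fold. Of the genes tested, 2439 (15%) rose and 1897 (11.7%) fell, together 26.6% (quasi-likelihood test of edgeR, with adjustment after Benjamini and Hochberg and a threshold of 0.05; genes past it are named called genes). Most called changes were small. Changes below 1.5-fold made up 783 of the genes that rose and 717 of those that fell, and a further 835 and 705 lay between 1.5-fold and 2-fold. Between 2-fold and 4-fold there were 650 that rose and 397 that fell. Between 4-fold and 8-fold the counts were 130 and 45, and at 8-fold or more 41 and 33. Called changes of at least 16-fold were increases in 17 genes and decreases in 21, and fitted changes of at least 8-fold, called or not, numbered 41 higher and 55 lower. At least 2-fold increases thus covered 821 genes (5.04% of those tested) and decreases 475 genes (2.92%). The middle 50% of genes that rose had log2 fold changes of 0.51 to 1.19, and that of genes that fell ran from -1 to -0.48. Over all tested genes the median was -0.05, and 45.6% lay above 0. A test for a change of more than 1.5-fold called 849 genes higher and 235 lower, so that increases were 78.3% of calls at that threshold, against 56.2% without it. Genes that rose had a median standard error of 0.13 log2 units, and genes that fell one of 0.17.

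**Figure D1:**
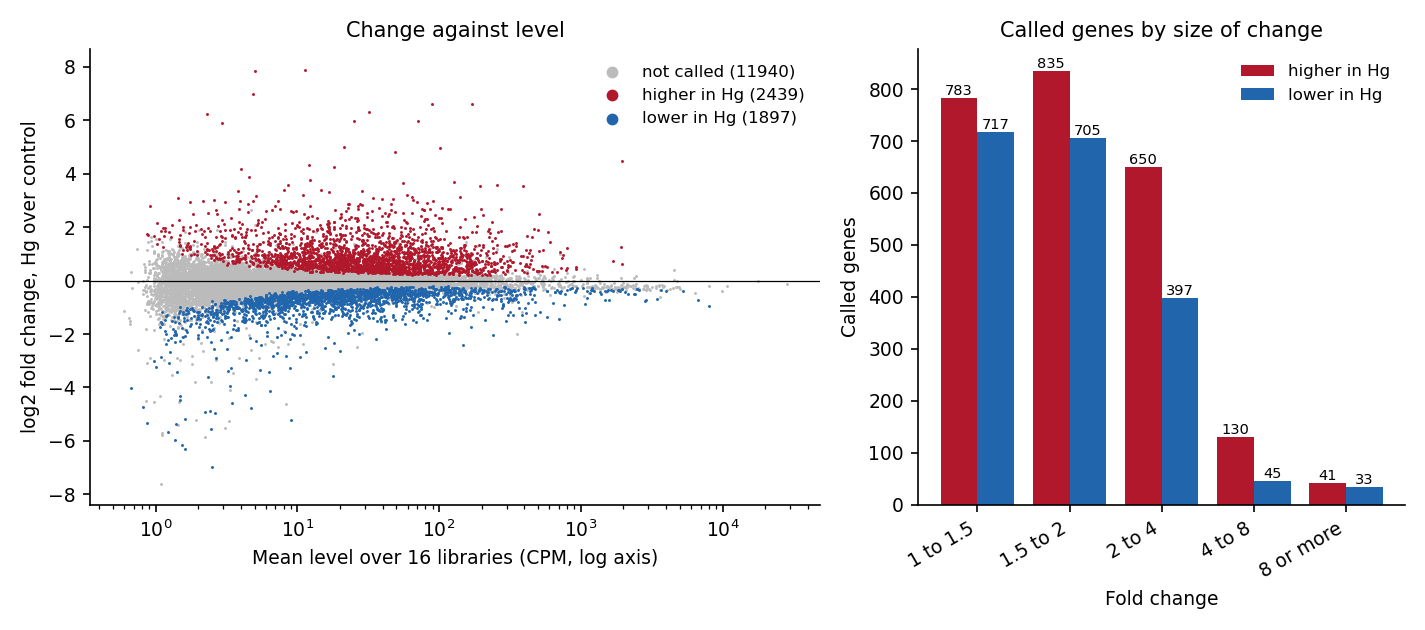
Left, log2 fold change of Hg over control against the mean CPM over all 16 libraries (log axis), 1 point per tested gene. Right, number of called genes by fold change. The increases of 8-fold or more spread over the whole range of levels up to that of v1g239529, while the decreases of that size lie near the low end.

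The genes shown by name had the largest differences in CPM between Hg and control pools, among called genes with a change of at least 2-fold whose pools did not overlap (803 that rose and 419 that fell). v1g239529 had 5190, 6310 and 7090 CPM in Hg pools 1 to 3, against 294, 267, 287 and 271 CPM in control pools 1 to 4. Every Hg pool lay far above every control, and the Hg pools were more spread out than the controls. The means were 6200 ± 960 CPM in Hg (SD, n = 3) and 280 ± 13 CPM in controls (SD, n = 4). This is a 22.1-fold increase, or 4.47 ± 0.12 on the log2 scale (SE; edgeR adjusted p = 1.2e-13). The increase in this gene alone was 5.25% of all the CPM gained by genes that rose. In Cu pools it had a log2 fold change of 3.58 against control (edgeR adjusted p = 2.93e-12), while Cd and Zn pools held 263 to 298 CPM.

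v1g241341 had 3190, 3410 and 3850 CPM in the Hg pools and 1510, 1350, 1520 and 1390 CPM in the controls. The groups were well separated, with a change far smaller in fold than that of v1g239529. Its log2 fold change was 1.27 ± 0.09 (SE; edgeR adjusted p = 4.69e-09). It also rose in Cu, with 1950 to 2130 CPM in the Cu pools, which is 0.52 above control on the log2 scale (edgeR adjusted p = 0.00155).

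Among genes that fell, v1g246240 had 319, 270 and 271 CPM in Hg pools, against 584, 815, 814 and 869 CPM in control pools. Control 1 was the lowest of the controls and still lay above all Hg pools. The log2 fold change was -1.43 ± 0.19 (SE; edgeR adjusted p = 2.68e-05). v1g248019 had 247, 323 and 307 CPM in the Hg pools and 509, 612, 1090 and 800 CPM in the controls. Its controls varied widely, with controls 3 and 4 highest, and the log2 fold change was -1.36 ± 0.24 (SE; edgeR adjusted p = 0.000548). Neither of these genes was called in Cu, where the log2 fold changes were 0.10 and -0.41 (edgeR adjusted p = 0.871 and 0.424). All 4 genes were called under each of 17 other settings, and the log2 fold change of v1g248019 ranged from -1.67 to -0.95 over them.

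**Figure D2:**
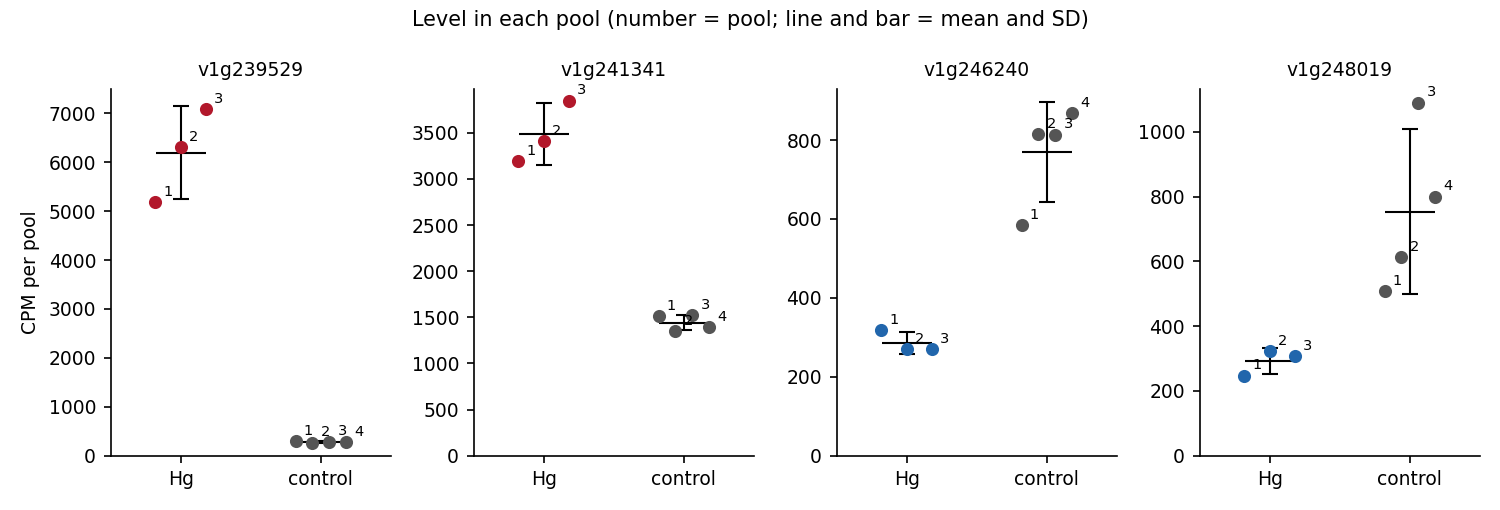
CPM of the 4 named genes in each Hg pool (left) and control pool (right), with numbers for the pools and the mean ± SD beside them. The Hg and control pools do not overlap in any panel, and the controls of v1g248019 run from 509 to 1090 CPM.

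Genes that rose gained 112700 CPM in all, and genes that fell lost 65170 CPM. Of all counts, genes that rose held 12.2% in controls and 23.6% in Hg, and genes that fell held 20.1% and 13.7%. CPM is a share of counts, so these sums do not give a net change in RNA per animal. The gain was spread over more genes than the loss. It took 173 genes to make up 50% of the gain and 55 genes for 50% of the loss, and the 10 largest differences held 14.2% of the gain and 24.5% of the loss. Genes with increases of at least 2-fold held 10.2%, 9.84% and 9.64% of all counts in Hg pools 1 to 3, against 2.73%, 3.21%, 3.18% and 3.12% in control pools 1 to 4. Genes that rose by less than 2-fold were 1618 in number and held 13.7% ± 0.57 of counts in Hg (SD, n = 3) and 9.17% ± 0.54 in controls (SD, n = 4). Those that fell by less than 2-fold numbered 1422, with 13% ± 0.34 in Hg (SD, n = 3) and 18.4% ± 0.36 in controls (SD, n = 4). These sets were chosen on the same pools, so their shares are descriptions with no test.

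**Figure D3:**
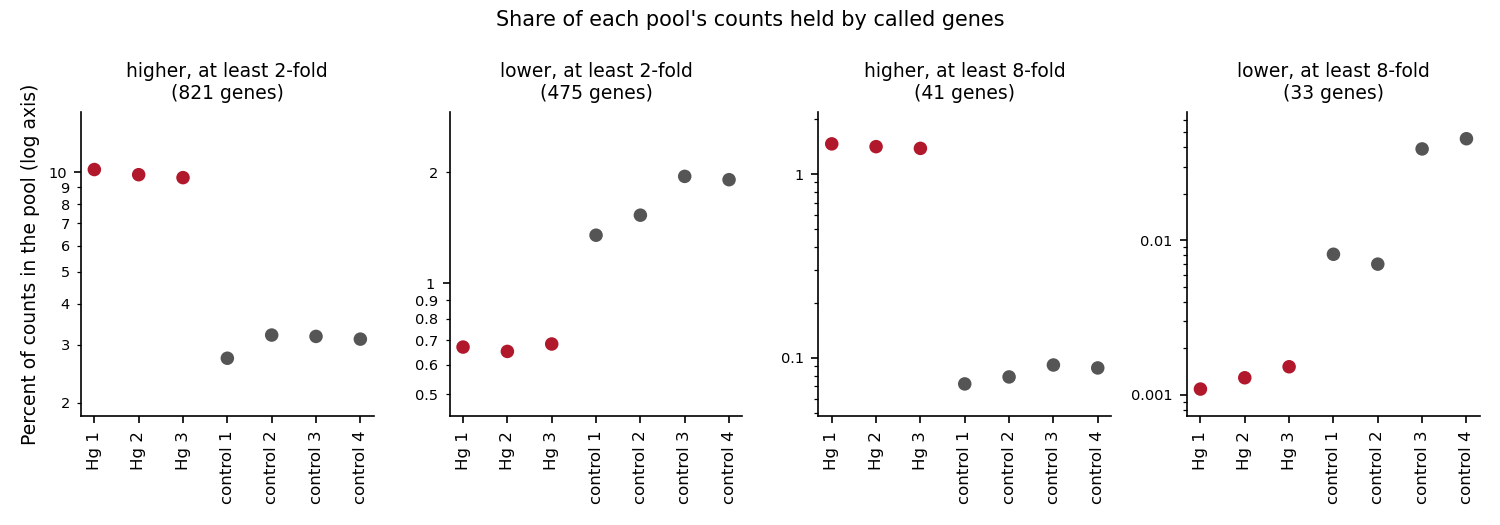
Percent of each pool's counts (log axes) held by called genes with changes of at least 2-fold and at least 8-fold, 1 point per pool. The Hg pools lie close together in every panel, and for the 33 genes with the largest decreases controls 1 and 2 (0.00812% and 0.00701%) lie well below controls 3 and 4 (0.039% and 0.0454%).

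How often a gene was called depended on its level, and the dependence differed between directions. Tested genes were sorted by mean CPM over all 16 libraries into 10 equal parts. In the lowest part, at 0.595 to 1.96 CPM, 2.7% rose and 4.43% fell. In the fifth part, at 8.22 to 12.2 CPM, 13.1% rose and 11.7% fell. In the ninth part, at 42.4 to 86.6 CPM, 30% rose and 15.6% fell, and in the highest part 27.2% rose and 18.7% fell. Decreases outnumbered increases in each of the 4 lowest parts, and increases outnumbered decreases in each of the 6 highest. At the very top the direction of most calls was reversed. Among the 100 genes with the highest mean CPM, 23 were called, 3 higher and 20 lower, against 26.6% of all tested genes. Only 2 of the 23 changed by at least 2-fold, v1g239529 and v1g241341, and both were higher. The median log2 fold change of all genes was -0.155 and -0.194 in the lowest 2 parts, 0.057 in the ninth and -0.04 in the highest.

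Precision changed with level much more than size did. The median standard error was 0.47 log2 units in the lowest part and 0.11 in the highest, while the median size of change over all tested genes was 0.46 and 0.30. The smallest change that was called was 0.96 log2 units in the lowest part and 0.21 in the highest. The median called change was accordingly larger at low level, at 1.69 log2 units against 0.59. Counted at 2-fold or more, increases were more frequent at high level, with 2.52% of genes in the lowest part and 9.58% in the ninth. Decreases of that size were more frequent at low level, with 4.36% in the lowest part, 5.47% in the second and 1.29% in the ninth. The dependence on level was not recomputed without controls 3 and 4. Decreases of at least 2-fold numbered 298 without these controls and 475 with all controls. Genes were also sorted by the 9 Cu, Cd and Zn libraries, whose values do not enter the difference between Hg and control, though they share in the filter and the estimate of spread. Increases of at least 2-fold were then 3.81% of genes in the lowest part, 8.54% in the ninth and 5.53% in the highest. In the highest part they were 7.92% with all libraries. Decreases of that size were 4.79%, 1.6% and 2.15% in these 3 parts. The percent called in this order was 8.97% in the lowest part and 43.7% in the highest, against 7.13% and 45.9% with all libraries. Thinning every library to 5494659 counts gave 6.43% and 44.8%.

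**Figure D4:**
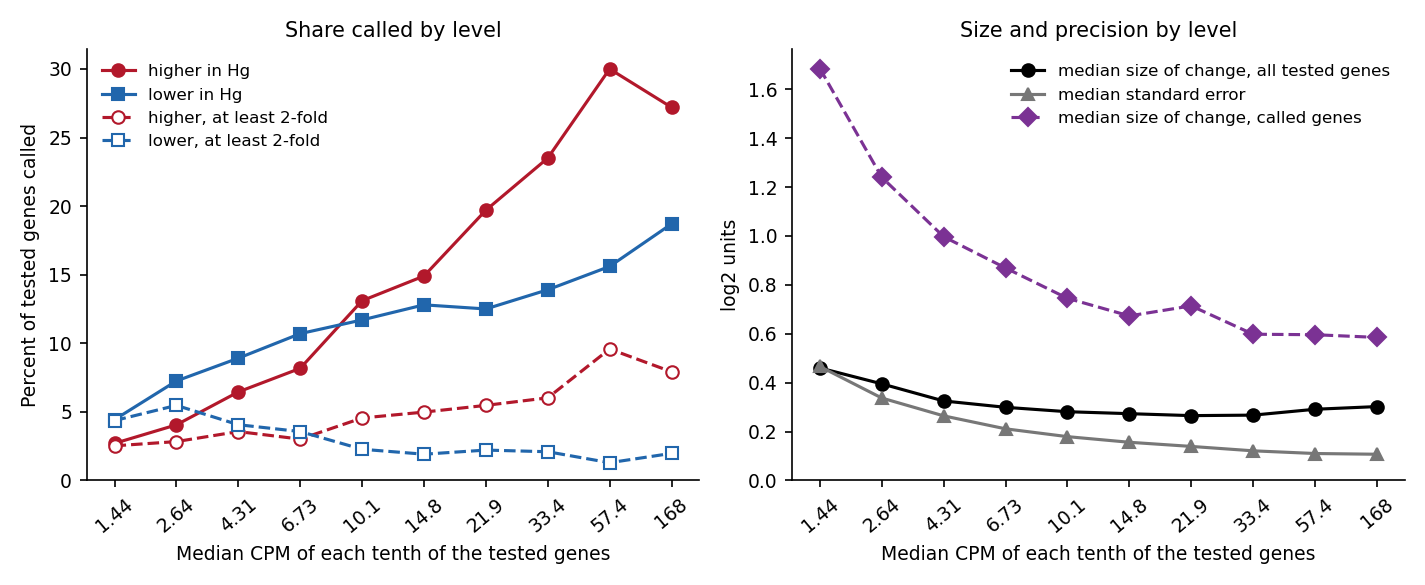
Left, percent of tested genes called in each of 10 equal parts by level, labelled with its median CPM, for all called changes (filled) and those of at least 2-fold (open). Right, median size of log2 change over all tested and over called genes, and median standard error. Calls of genes that rose reach 30% in the ninth part, and the standard error falls to 0.11.

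Consistency between pools was read first in the called genes, which were selected on these same pools, so their agreement is a description. All 3 Hg pools lay above all 4 controls in 2320 of the 2439 genes that rose (95.1%) and below them in 1604 of the 1897 that fell (84.6%). Over all tested genes the pools did not overlap for 32.1%, with Hg higher in 17.7% and lower in 14.4%. The median log2 difference from the control mean in genes that rose was 0.80 in Hg 1, 0.74 in Hg 2 and 0.74 in Hg 3, and in genes that fell -0.69, -0.64 and -0.64. Hg 1 was the highest of the Hg pools in 1070 of the genes that rose and the lowest in 743, and it was also the library with the fewest counts. The part of depth in this was not tested.

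Between any Hg and any control pool the median absolute log2 difference over tested genes was 0.345 to 0.41, against 0.218 to 0.249 between Hg pools and 0.198 to 0.261 between control pools. Differences of at least 2-fold covered 11.3% to 16.3% of genes between an Hg and a control pool, 5.46% to 6.6% between Hg pools and 4.28% to 6.68% between control pools. Hg pools varied among themselves about as much as controls did. The common biological coefficient of variation was 17.5% among Hg pools and 18.2% among controls, and 44.3% of tested genes had a larger SD of log2 CPM in Hg.

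Calls made without an Hg pool were read in that pool, against controls that served both steps. Of the 2011 genes called higher without Hg 1, 99.4% were above the control mean in Hg 1 and 96.7% above every control. For the 2105 called without Hg 2 the values in Hg 2 were 99% and 96.2%, and for the 2227 called without Hg 3 they were 98.8% and 94.2% in Hg 3. Genes called lower carried over less often, above all when read against every control. In the same order, 98.3%, 97% and 96.2% were below the control mean and 89.2%, 85.1% and 83.6% below every control. Among genes not called in these fits, 19.5% to 23% lay above every control and 28.1% to 31% below. The median log2 difference in the pool left out was -0.66, -0.57 and -0.56 for genes called lower, against fitted medians of -0.78, -0.75 and -0.79 in the pools that called them. For genes called higher it was 0.86, 0.79 and 0.74, against 0.83, 0.86 and 0.82.

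The number of decreases moved with the controls used more than that of increases. Genes lower in Hg numbered 1235 without controls 3 and 4, and 1058 of them were among the 1897 called with all controls. Without controls 1 and 2 the number was 1712. Decreases of at least 2-fold numbered 298 and 722 in these settings (edgeR), against 475 with all controls, whereas increases of that size numbered 812 and 891 against 821. In the 475 genes the Hg pools held 0.671%, 0.653% and 0.684% of counts, and controls 1 to 4 held 1.35%, 1.53%, 1.95% and 1.91%. The 475 were selected as lower in Hg on these same pools, so their shares are descriptions. Every control lay above every Hg pool, with controls 3 and 4 highest.

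This difference among controls was widest in the largest decreases. The 33 genes that fell at least 8-fold held 0.00109%, 0.00129% and 0.00152% of counts in Hg pools, against 0.00812%, 0.00701%, 0.039% and 0.0454% in control pools 1 to 4. Cd and Zn pools held 0.00737% to 0.0122% of counts in the same genes, and Cu pools 0.004% to 0.0124%. Controls 3 and 4 were both above controls 1 and 2 in 26 of these 33 genes, in 14 of the 41 that rose at least 8-fold and in 22.4% of all tested genes. The 33 were selected for high control values, so this count is a description. Without controls 3 and 4, 17 of the 33 could be tested and 10 were called lower. With all controls, 12 of the 33 passed the test for more than 1.5-fold. The median level of the 33 genes was 2.34 CPM over all libraries. Their Hg and control pools did not overlap in 22, while over all tested genes Hg was lower without overlap in 14.4%.

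The 41 genes that rose at least 8-fold held 1.46%, 1.41% and 1.38% of counts in Hg pools and 0.0722%, 0.0788%, 0.0915% and 0.0882% in control pools. The Hg and control pools did not overlap in any of the 41. Over all tested genes, Hg was higher without overlap in 17.7%. All 41 were called without controls 3 and 4, without controls 1 and 2 and in the test for more than 1.5-fold. The 41 were selected for large called increases on these same pools, so these counts are descriptions. Their median level was 99.6 CPM in Hg pools and 4.01 CPM in controls. Cd and Zn pools held 0.0759% to 0.0895% of counts in these genes, within the range of the controls, and Cu pools 0.447% to 0.618%.

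A further 50 genes had fitted changes of at least 4-fold and were not called, and 48 of them were lower in Hg. Their control pools were far apart, with a median SD of log2 CPM of 2.35 in controls and 0.61 in Hg pools, at a median level of 2.2 CPM.

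Set against the 6 Cd and Zn pools, which share no library with the controls, Hg gave similar numbers. In the contrast of Hg with the mean of Cd and Zn, 2801 genes (17.2%) were higher in Hg and 2216 (13.6%) lower, together 30.8% (edgeR adjusted p under 0.05). By the same fit Cu, Cd and Zn against control gave calls in 4.2%, 0.0184% and 0.00614% of genes. Both Hg comparisons use the same 3 Hg pools and are not independent. Of the 2439 genes that rose against control, 2230 were also higher than in Cd and Zn, which is 91.4% of the first list and 79.6% of the second. Of the 1897 that fell, 1409 were also lower than in Cd and Zn, 74.3% of the first list and 63.6% of the second. The median log2 fold change of the genes that rose was 0.77 in both comparisons, and that of the genes that fell was -0.59 against Cd and Zn and -0.69 against control. Of the genes that changed at least 8-fold, all 41 that rose and 11 of the 33 that fell were called against Cd and Zn.

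Hg pools stood beyond all 13 other libraries of the series, Cu included, in 1802 of the genes that rose (73.9%) and in 804 of those that fell (42.4%). Over all tested genes they stood above all 13 in 11.9% and below all 13 in 5.62%, and the called genes were selected on the same Hg pools. Among the named genes, the log2 fold change against Cd and Zn was 4.47 for v1g239529 and 1.33 for v1g241341 (edgeR adjusted p = 7.43e-15 and 3.75e-10). It was -1.50 for v1g246240 and -1.05 for v1g248019 (edgeR adjusted p = 7.04e-06 and 0.00222).

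For genes that were not called, the precision sets what can be said. The 95% interval of the log2 fold change lay wholly within 1.5-fold of no change for 5373 genes, of which 399 were called. Within 2-fold it lay for 10654 genes (65.5% of those tested). Of the 11940 genes not called, 8726 had an interval within 2-fold, at a median of 13.9 CPM. For the other 3214 the interval reached 2-fold or beyond, so that a change of that size is not excluded, and their median level was 2.36 CPM.

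The make-up of the libraries as a whole was compared with 1 value per pool. The 100 most abundant genes of each pool took 29.1%, 31.5% and 32.8% of counts in Hg pools, against 39.8%, 34.8%, 34.9% and 33.7% in control pools. Every Hg pool lay below every control, and the means were 31.1% ± 1.84 in Hg (SD, n = 3) and 35.8% ± 2.73 in controls (SD, n = 4; exact permutation test, two-sided p = 0.0571). With 3 against 4 pools and the smaller tail doubled, 0.0571 is the smallest p this test can give. Adjusted over 5 such values, the permutation p was 0.143. At an equal depth of 5494659 counts, 19930, 19698 and 19818 gene models had a count in Hg pools, against 19920, 20100, 20112 and 20139 in control pools. Hg 1 lay among the controls, and the difference in means of -252.4 models had a two-sided exact permutation p of 0.114. Models with at least 5 counts at that depth numbered 16372, 16236 and 16383 in Hg pools and 16384, 16726, 16721 and 16813 in control pools. Here every Hg pool lay below every control, by 1 model at the nearest, with a difference in means of -330.7 models (two-sided exact permutation p = 0.0571; 0.143 adjusted over the 5 values). The thinning was a single random draw, and a margin of 1 model may not hold in another draw.

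In the authors' deposited table, 1586 genes were higher and 615 lower in Hg at an adjusted p under 0.05. Of these, 1564 and 599 were called in the same direction here, and 0 in the opposite one. Genes called here and not in the authors' deposited table had smaller changes, with median log2 fold changes of 0.46 for 875 that rose and -0.59 for 1298 that fell. For genes called in both the medians were 0.97 and -0.92. The authors' deposited table gives v1g239529 a fold change of 22.3.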

How the data were processed

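Per the labels' protocols, total RNA came from Tri-reagent extraction and went into TruSeq mRNA libraries. STAR, Partek and DESeq are named in the submitters' processing notes without versions or roles, and the sources used here give no genome build, strand or sequencing batch. The authors deposited 1 table per metal with raw counts per gene model. Per the file headers, the Hg table also holds base means per group (a normalized signal), a fold change that is their ratio, and p-values and adjusted p-values. These columns were used for the comparison with the authors' deposited table alone, and 0 columns of per-library counts were left unused.

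Counts of all 16 libraries entered one fit in R 4.3.3 with edgeR 4.0.16, with the default filterByExpr rule, TMM scaling, robust quasi-likelihood dispersions and 1 term per group. Hg was tested against control and against the mean of Cd and Zn, with Benjamini-Hochberg adjustment over 16276 genes and a threshold of 0.05. Standard errors were taken from the F statistic (size of the log2 change over root F), and 95% intervals used the t distribution with the degrees of freedom of the fit. Log2 CPM values for pools used a prior count of 2. The genes left out by the filter held 0.195% of Hg and control counts. At most 2 genes that rose and 2 that fell were named, by largest difference in mean CPM, because identifiers could not be paired with names. The gene lists and cell type markers planned in case names were found were not used. The comparison, the split of the controls into 1 and 2 and 3 and 4, and the rule for named genes were chosen with earlier results of these data known. Alternatives were DESeq2 1.42.0, its size factors, other filters, only the groups compared, a replicate block, a minimum change of 1.5-fold, libraries left out and thinned counts.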

Additional observations from a re-analysis of the deposited data

Results flagged for a closer look

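Of 17 values with a level in each of the 4 controls, 1 had a control far from the other 3. The 2439 genes that rose in Hg took 11.11% of counts in control 1, against 12.45% to 12.69% in controls 2 to 4, while the Hg pools lay at 22.8% to 24.5%. These shares are of library totals without TMM scaling. The TMM factor was 0.9052 in control 1 and 1.017 to 1.053 in controls 2 to 4. The part of composition in this difference was not tested. Control 1 also had the largest share of counts in its 100 most abundant genes, at 39.8%. With 4 values per group, about 1 group in 20 is marked in this way by chance. Groups of 3 were not examined.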

How the results depend on the processing

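The numbers of genes that rose and fell stayed within 1.5 times the main count in 16 and 15 of 17 settings. Testing for a change of more than 1.5-fold gave 849 higher and 235 lower against control, 215 lower by at least 2-fold, and 974 higher and 272 lower against Cd and Zn. Without controls 3 and 4 there were 1235 lower and 298 lower by at least 2-fold, and without controls 1 and 2 there were 722 lower by at least 2-fold. The cause was not tested. Leaving out 1 library gave 2011 to 2366 higher and 1312 to 1889 lower, and at least 2-fold 774 to 855 higher and 328 to 570 lower. Against Cd and Zn it gave 2267 to 2785 higher and 1516 to 2158 lower. The share of the 100 most abundant genes differed by -5.519 to -3.353 percentage points and the models detected by -309.8 to -193.8 when 1 library was left out. The percent called in the lowest part was 8.97% with level from the Cu, Cd and Zn libraries and 9.22% with 5 parts, which are wider by construction. A replicate block gave 2199 higher and 1531 lower. Deviations of same-numbered Hg and control pools from their group means correlated at -0.15, -0.043 and -0.044 across genes. Hg 3 correlated best with control 1 (0.222). With so few pools per group these values cannot decide whether replicate numbers pair the pools. Control 4 has no partner in the block. Depth limits the lowest level part most, where 1 CPM is 5.69 to 7.82 counts in an Hg pool.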

Other observations

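Some gene models had counts in one group alone. In Hg pools 599 models had a count where no control did, and 1051 had a count in controls and none in Hg. Of these, 29 had a count in all 3 Hg pools and 20 a count in all 4 controls. The numbers are not matched for pools or total counts, since there were 4 control pools and 3 Hg pools. Of the 599 models 0 had enough counts to be tested, of the 1051 models 1 had, and 0 were called. The authors' deposited table lists the same numbers, 599 models with an infinite fold and 1051 with a fold of 0. Its folds are ratios of group means of the same counts, so this is not separate evidence.

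Genes with neighbouring identifier numbers were described in pairs, with no test. Among 6743 neighbouring pairs of tested genes whose numbers differ by at most 5, the next gene rose in 19.9% of the 1003 pairs whose first gene rose, against 15.5% of all pairs. It fell in 15.1% of the 829 pairs whose first gene fell, against 12.2% of all pairs. Both genes rose in 200 pairs, both fell in 125, and 1 rose while the other fell in 250. The sources used here do not say whether the numbers follow position in the genome.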
